A study of Mus musculus with 9 samples.

Results

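Cd9, Cd63, Cd81, Cd82, Cd151, Tsg101, Pdcd6ip, Sdcbp, Rab27a and Rab27b were followed across 3 groups of mouse cardiosphere-derived cells (CDCs), the cells that grow out of cardiac explants and pass through free-floating spheres. These 10 genes, 5 of the tetraspanin family and 5 of the machinery that makes and releases exosomes, were taken by symbol from a table of 54532 genes, and each symbol matched 1 entry. The RNA-seq data comprised 9 libraries, with 3 in each group. The primary cells (pECDC, called primary CDC in the labels) were untreated cells from C57BL/6 mouse heart ventricle. Per the methods of the study they were grown from the epicardium, the outer layer of the heart, peeled off the ventricle of adult mice. The E in the group names stands for epicardium. The immortalized cells (iECDC, iCDC in the labels) were the same type of cell carrying human telomerase reverse transcriptase (hTERT), brought in by a lentivirus with a CMV promoter and kept by puromycin selection, and were taken untreated at passage 30. The labels give the third group (SB431542) as the immortalized cells at passage 30 after 3 days with SB431542, which blocks the kinase of the TGF-β type I receptor, whereas the methods of the study list an inhibitor-treated epithelial clone that came from primary cells. Both groups therefore served as its reference. The authors' own comparisons name the treated cells S_ICDC and set them against both ICDC and PCDC. Which description holds was not tested. Nothing in the labels says that replicates came from separate cultures, so the p-values measure the spread between these libraries, which may be technical.

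Tetraspanins are small proteins that cross the membrane 4 times and gather integrins, immunoglobulin-type partners and each other into membrane patches. Cd63, Cd9 and Cd81 proteins are the usual marker proteins of extracellular vesicles, and CDCs are known to act on the heart in large part through the vesicles they release. Exosomes bud into the lumen of late endosomes with the help of the ESCRT complexes, to which Tsg101 belongs, or along a route that runs through syndecans, syntenin (Sdcbp) and ALIX (Pdcd6ip). The small GTPases Rab27a and Rab27b then dock the filled endosome at the plasma membrane. RNA levels of these genes are not a measure of vesicle release, which was not recorded here.

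The shared design of the 5 tetraspanin genes can be read in their coding sequence, shown here to make plain how the genes that differ most in level still encode one kind of protein. The large outer loop of a tetraspanin opens its disulfide core with the residues Cys-Cys-Gly. All 33-base stretches below were read from the GENCODE transcripts of GRCm38 on the coding strand, 5′ to 3′, and the capitals mark the codons of this triplet. Each stretch begins in 1 exon and ends in the next one, so the interval printed with it spans an intron.
Cd9 (chr6:125462177-125462332, minus strand, exons 5 and 6): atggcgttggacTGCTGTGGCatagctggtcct
Cd63 (chr10:128912058-128912187, plus strand, exons 5 and 6): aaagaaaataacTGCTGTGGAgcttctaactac
Cd81 (chr7:143066347-143066687, plus strand, exons 5 and 6): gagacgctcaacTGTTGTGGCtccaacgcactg
Cd82 (chr2:93420729-93421832, minus strand, exons 7 and 8): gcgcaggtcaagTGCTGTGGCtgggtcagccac
Cd151 (chr7:141470220-141470336, plus strand, exons 5 and 6): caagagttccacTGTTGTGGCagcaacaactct

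The 5 genes differ at the other end of the protein. Cd63 is carried to late endosomes and lysosomes by a tyrosine signal in its short tail, a tyrosine followed after 2 residues by a bulky hydrophobic residue. The last 39 coding bases, stop codon included, are printed with the codons of such a signal in capitals. A match is a description of the letters and not a test of sorting.
Cd63 (chr10:128912702-128912740, plus strand, exon 8): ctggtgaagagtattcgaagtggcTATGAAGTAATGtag
Cd82 (chr2:93419865-93419903, minus strand, exon 10): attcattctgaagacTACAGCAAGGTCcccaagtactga
Cd151 (chr7:141470659-141470697, plus strand, exon 7): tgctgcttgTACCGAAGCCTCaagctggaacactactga
Cd9 (chr6:125460661-125460699, minus strand, exon 8): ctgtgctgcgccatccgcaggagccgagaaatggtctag
Cd81 (chr7:143067336-143067374, plus strand, exon 8): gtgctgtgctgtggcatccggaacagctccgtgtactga

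Cd63, Cd82 and Cd151 each hold 1 such signal in this stretch, and Cd9 and Cd81 hold 0. Over whole coding sequences the 5 tetraspanin genes shared between 61.8% and 67.2% of the aligned bases in pairs. Cd63 and Cd82 were the pair that shared least, and Cd81 and Cd151 the pair that shared most. Rab27a and Rab27b shared 69.9% of 651 aligned coding bases.

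Sequencing depth lay between 16568306 and 23951392 counts per library. Of the 3 replicates of iECDC, replicate 3 stood apart, with a chi-square per degree of freedom of 30.8 and 24.9 against the other 2, which differed by 4.61. In the SB431542 group, replicate 2 stood further apart (71.5 and 70.3, against 3.79). Acta2, a smooth muscle actin gene induced by TGF-β, was at 1898 FPKM in iECDC replicate 3 and at 812 and 848 in the other 2. In SB431542 replicates 1, 2 and 3 it was at 137, 322 and 137 FPKM, below every untreated library, and replicate 2 was the least reduced. Tgfbi, also known as a TGF-β-induced gene, was at 9.995, 2.06 and 8.98 FPKM there, above iECDC (0.52 to 0.66) in every replicate. All 3 surface markers of CDCs (Eng, Thy1, Ly6a) were detected in every library. Of the epicardial markers, Tbx18 was at 18.8 to 41.8 FPKM in all libraries, whereas Wt1 did not exceed 0.40. Endothelial markers summed to at most 0.0946 FPKM and cardiomyocyte markers to at most 1.68. Blood and macrophage markers, whose cells are rich in several tetraspanins, summed to 8.60 to 9.88 FPKM in pECDC, 4.79 to 10.4 in iECDC and 7.55 to 10.5 in SB431542, with Adgre1 at 0 and Ptprc at no more than 0.01 throughout. Most of the sum came from Csf1r (3.46 to 7.41 FPKM), Cd53, itself a tetraspanin gene (0.64 to 2.53), and Cd68 (0.67 to 2.04). Their part in the results below was not tested. In bulk RNA, fewer cells of a type and less RNA per cell cannot be told apart.

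Levels are given as FPKM, fragments per kilobase of gene scaled to library size, which allows comparison between genes. Cd63 led in every library. It was at 235, 236 and 242 FPKM in pECDC replicates 1, 2 and 3, at 269, 254 and 236 in iECDC, and at 209, 208 and 209 in SB431542. The treated libraries lay close together and below all 6 untreated ones, while the lowest iECDC value fell inside the pECDC range.

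Cd81, which partners EWI immunoglobulin-family proteins in the membrane, came next in mean level. It was at 133, 131 and 145 FPKM in pECDC and at 144, 143 and 132 in iECDC. In SB431542 it was at 174, 125 and 168, so that replicates 1 and 3 were above all untreated libraries and replicate 2 was below them.

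Cd151 binds the laminin-receptor integrins and was at 92.8, 94.6 and 98.8 FPKM in pECDC. It was at 119, 117 and 142 in iECDC and at 140, 132 and 133 in SB431542. The pECDC libraries were the 3 lowest, and iECDC replicate 3 was the highest of the 9.

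Cd9, the tetraspanin needed for sperm and egg fusion and a common surface marker of vesicles, was at 44.6, 44.6 and 46.0 FPKM in pECDC. It was at 49.3, 42.4 and 37.2 in iECDC and at 48.7, 37.8 and 51.7 in SB431542. The spread within each of the latter groups enclosed the pECDC values.

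Cd82, known as a suppressor of metastasis, was the lowest of the 5. It was at 5.29, 5.62 and 6.34 FPKM in pECDC, at 4.55, 4.80 and 5.85 in iECDC, and at 15.2, 7.01 and 15.4 in SB431542. All treated libraries were above all untreated ones, and replicate 2 was much closer to the untreated libraries than replicates 1 and 3 were.

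Tsg101, the ESCRT-I subunit that binds ubiquitinated cargo, was at 30.1, 31.3 and 29.6 FPKM in pECDC. It was at 32.7, 32.1 and 33.1 in iECDC and at 23.5, 29.1 and 24.8 in SB431542. The iECDC libraries were the 3 highest and the treated ones the 3 lowest, with replicate 2 nearest to pECDC.

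Pdcd6ip, which encodes the ESCRT adaptor ALIX, was at 43.8, 43.2 and 43.1 FPKM in pECDC. It was at 42.8, 45.7 and 46.2 in iECDC and at 39.1, 39.0 and 37.3 in SB431542. The 3 treated libraries were again the lowest. Sdcbp, the scaffold that ties syndecans to ALIX, was at 30.9, 30.8 and 32.0 FPKM in pECDC, at 33.5, 34.3 and 30.4 in iECDC and at 31.8, 28.4 and 34.3 in SB431542. All 3 groups overlapped.

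The RAB27 genes were scarcely expressed, from 36 to 115 counts for Rab27a and from 125 to 283 for Rab27b per library. Rab27a, the form that docks late endosomes at the cell surface, was at 1.21, 1.14 and 0.95 FPKM in pECDC, at 0.82, 0.93 and 0.60 in iECDC and at 0.96, 0.70 and 0.64 in SB431542. The pECDC libraries were above all iECDC ones but not above all treated ones. Rab27b was at 0.99, 1.03 and 0.97 FPKM in pECDC, at 1.04, 1.12 and 0.76 in iECDC and at 1.51, 0.59 and 1.38 in SB431542. The treated group held both the highest and the lowest of the 9 values.

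**Figure D1:**
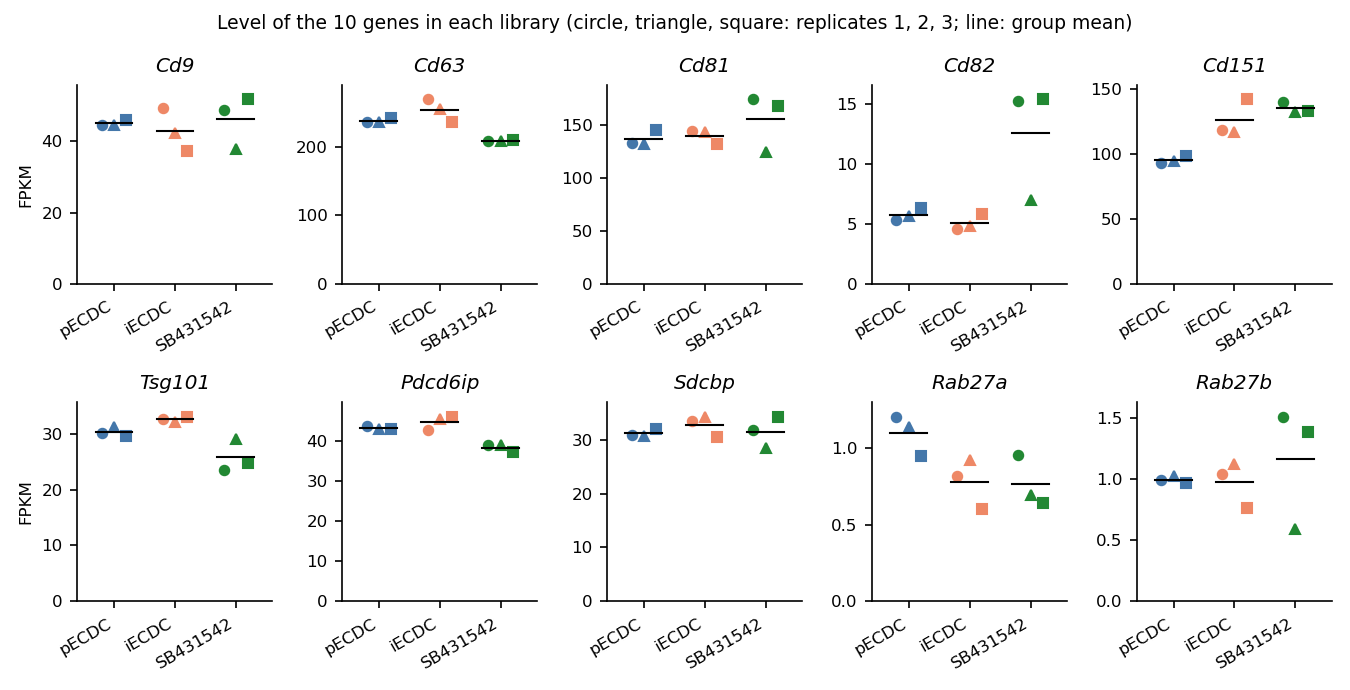
FPKM (vertical axes, each from 0) of the 10 genes in the 3 groups, with 1 symbol per library (circle, triangle and square for replicates 1, 2 and 3) and a line at the group mean. Cd82 sits between 4.55 and 6.34 in the 6 untreated libraries and at 15.2, 7.01 and 15.4 in the treated ones, and Cd151 is lowest in the 3 pECDC libraries.

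In pECDC the order of mean level was Cd63, Cd81, Cd151, Cd9, Pdcd6ip, Sdcbp, Tsg101, Cd82, Rab27a and Rab27b. Sdcbp overlapped Tsg101 and Rab27a overlapped Rab27b in their libraries, and every other neighbouring pair was separate. In iECDC, Cd81 (139 ± 6.87 FPKM, mean ± SD, n = 3) and Cd151 (126 ± 14.1) overlapped, as did Pdcd6ip with Cd9, Sdcbp with Tsg101, and Rab27b with Rab27a. In SB431542 the overlapping neighbours were Cd81 with Cd151, Cd9 with Pdcd6ip, Sdcbp with Tsg101, and Rab27b with Rab27a. Among the genes with a mean of at least 1 FPKM in pECDC, Cd63 stood at percentile 98.5 and Cd82 at percentile 41.2. In SB431542, Cd82 stood at percentile 64.8.

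The first comparison asked what long culture with hTERT did to these genes. Cd151 was higher in iECDC than in pECDC by 1.31-fold (log2 fold change 0.39, SE 0.083, adjusted p = 0.0139, quasi-likelihood test of edgeR, Benjamini-Hochberg over all genes tested). All 10 genes were tested, and Cd151 alone was called at an adjusted p under 0.05. Passage number and hTERT differ together between these groups and cannot be told apart. Among 13752 genes tested, 16.4% were called, 7.21% as higher and 9.21% as lower, so that 1 call in 10 genes is not above the background. No gene of the 10 was called lower by edgeR, by DESeq2 or by limma, and 1 (Rab27a) was lower at an unadjusted p under 0.05. Rab27a, at low counts, had a log2 fold change of -0.50 (SE 0.19, adjusted p = 0.113, edgeR). It did not pass the threshold after adjustment over all genes tested. Tsg101 did not overlap between the groups, yet the log2 fold change was 0.09 (adjusted p = 0.308, edgeR). How many of all genes did not overlap was not counted. For Cd9, Cd63, Cd81, Pdcd6ip, Sdcbp and Rab27b the log2 fold change lay between -0.08 and 0.08, and for Cd82 it was -0.20 (SE 0.12, adjusted p = 0.284, edgeR). The median over the 10 genes was 0.03, beside 0.00 over all genes tested.

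The call for Cd151 was lost when any 1 of the pECDC replicates was left out, with an adjusted p of 0.0770, 0.0742 and 0.0508 without replicates 1, 2 and 3 (edgeR; range over 16 alternatives 4.93e-05 to 0.0770). Without iECDC replicate 3, 4 of the 10 genes were called, beside 31.7% of all genes, namely Cd63 (log2 fold change 0.13), Cd151 (0.29) and Sdcbp (0.11) as higher and Cd82 (-0.31) as lower, with adjusted p of 0.0153, 4.93e-05, 0.0497 and 0.0234 (edgeR).

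The second comparison asked how the cells treated with the TGF-β receptor inhibitor differed from untreated iECDC. Cd82 was higher in the treated cells by 2.49-fold (log2 fold change 1.32, SE 0.29, adjusted p = 0.0126, edgeR's quasi-likelihood test, Benjamini-Hochberg), with a mean of 12.5 ± 4.77 FPKM against 5.06 ± 0.69 (SD, n = 3 each). It was the single call among the 10 genes. Of 13559 genes tested, 30.0% were called, 16.0% as higher and 14.0% as lower, so that the 10 genes held fewer calls than the background share. No gene was called lower by edgeR or DESeq2, while 2 (Cd63 and Tsg101) had an unadjusted p under 0.05 and limma called Tsg101. Tsg101 had a log2 fold change of -0.33 (SE 0.11, adjusted p = 0.0514, edgeR) and was lower in 3 of 3 treated libraries than in any iECDC library. The same separation was seen for Cd63 (-0.27, SE 0.12, adjusted p = 0.113, edgeR) and Pdcd6ip (-0.21, SE 0.10, adjusted p = 0.146). The share of all genes separated in this way was not counted, so these separations cannot be set against a background. Cd9, Cd81 and Cd151 had log2 fold changes of 0.11, 0.17 and 0.11 and overlapped between the groups. Sdcbp and Rab27a lay at -0.04 and -0.03, and Rab27b at 0.26 with an SE of 0.33. The median over the 10 genes was 0.04, beside 0.00 over all genes.

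The number of the 10 genes called moved with the libraries that entered the fit. Without SB431542 replicate 2, 5 were called (50.2% of all genes): Cd82 (1.60), Rab27b (0.57) and Cd81 (0.30) as higher, and Tsg101 (-0.43) and Cd63 (-0.27) as lower, the numbers being log2 fold changes from edgeR. With iECDC replicate 3 left out as well, an alternative added after seeing the data, 7 were called (64.5% of all genes), and Cd151 (0.22) joined those higher and Pdcd6ip (-0.20) those lower. Without iECDC replicate 1 or 2, none was called at an adjusted p under 0.05, and Cd82 had an adjusted p of 0.0608 and 0.0535 (edgeR; range over 17 alternatives 9.40e-17 to 0.0608). The 4 epicardial markers summed to 25.7 to 44.9 FPKM in SB431542 and to 19.4 to 25.7 in iECDC, nearly all of it Tbx18. Tbx18 was at 39.7, 22.9 and 41.8 FPKM in SB431542 replicates 1, 2 and 3, lowest in replicate 2 as Cd82 was, whereas in iECDC it was at 25.0, 23.2 and 18.8, in the opposite order to Cd82. Wt1, at 0.40, 0.11 and 0.35 FPKM in SB431542 replicates 1, 2 and 3, was also lowest in replicate 2. Upk3b (1.16, 1.31 and 1.36 FPKM) and Tcf21 (1.58, 1.38 and 1.34) were not lowest there. Their part in the result was not tested.

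The third comparison set the treated cells against pECDC, the reference that the methods of the study imply. It shares the treated libraries with the second and the pECDC libraries with the first, so its calls are not independent of theirs. Cd82 was higher by 2.19-fold (log2 fold change 1.13, SE 0.29, adjusted p = 0.0228, edgeR's quasi-likelihood test, Benjamini-Hochberg) and Cd151 by 1.43-fold (0.51, SE 0.071, adjusted p = 0.00252). These were 2 of the 10 genes, and the background share was 34.8% of 14015 genes, with 17.9% higher and 17.0% lower. Lower calls numbered 0 by edgeR and by limma and 1 by DESeq2 (Cd63), while 4 genes (Cd63, Tsg101, Pdcd6ip and Rab27a) were lower at an unadjusted p under 0.05. Their log2 fold changes were -0.18, -0.22, -0.16 and -0.52, with adjusted p of 0.0812, 0.0900, 0.0905 and 0.0934 (edgeR). Cd63, Tsg101 and Pdcd6ip were lower in every treated library than in any pECDC library, whereas Rab27a overlapped by 1 value. Here too, the share of all genes without overlap was not counted. Cd81, Rab27b, Cd9 and Sdcbp were not called, with log2 fold changes of 0.20, 0.23, 0.04 and 0.02 and SEs of 0.14, 0.32, 0.12 and 0.089.

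Leaving out SB431542 replicate 2 raised the number of calls from 2 to 8 of 10, beside 64.1% of all genes. Added as higher were Cd81 (log2 fold change 0.33, adjusted p = 7.69e-06), Rab27b (0.55, 5.71e-05) and Cd9 (0.16, 0.00405), and added as lower were Tsg101 (-0.32, 2.02e-05), Cd63 (-0.18, 0.000936) and Pdcd6ip (-0.17, 0.00181), all from edgeR's test. Without SB431542 replicate 1 or 3, or any of the pECDC replicates, only Cd151 of the 10 was called, and the adjusted p of Cd82 lay between 0.0674 and 0.0880 (edgeR).

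**Figure D2:**
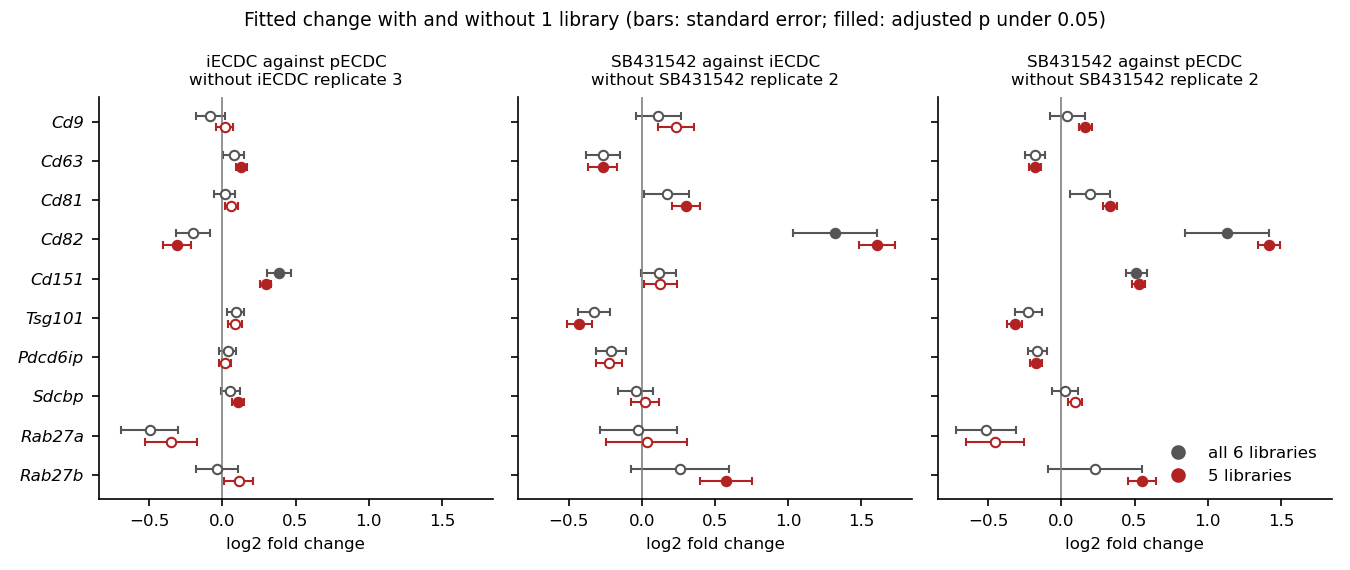
Log2 fold change of each gene (horizontal axis) in the 3 comparisons, fitted with all 6 libraries (grey) and without 1 library (red; iECDC replicate 3 in the left panel, SB431542 replicate 2 in the others). Bars are standard errors and filled symbols have an adjusted p under 0.05, which 1, 1 and 2 genes reach with all libraries and 4, 5 and 8 without the 1 library.

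As a pool, the 5 tetraspanin genes summed to 521 ± 15.7 FPKM in pECDC, 567 ± 16.7 in iECDC and 558 ± 42.1 in SB431542 (mean ± SD, n = 3 each). The pool was larger in every iECDC library (553 to 585 FPKM) than in any pECDC library (511 to 539), and ranged from 510 to 587 in SB431542. Cd63 held 45.7% ± 0.63 of it in pECDC, 44.7% ± 1.72 in iECDC and 37.5% ± 2.84 in SB431542, and its highest share in a treated library, 40.8% in replicate 2, was below the lowest untreated share of 42.7%. Cd151 held 18.3% ± 0.16, 22.3% ± 3.00 and 24.3% ± 1.49 in the same order, with every pECDC library below every other. Cd81 held 26.2% ± 0.68, 24.6% ± 0.84 and 27.7% ± 2.84, and Cd9 held 8.66% ± 0.10, 7.56% ± 0.85 and 8.23% ± 0.77. Cd82 held 1.10% ± 0.071, 0.90% ± 0.14 and 2.21% ± 0.72. There were 41.6 ± 3.16 units of Cd63 FPKM for each unit of Cd82 in pECDC, 50.8 ± 9.55 in iECDC and 19.0 ± 9.22 in SB431542. For Rab27b over Rab27a the ratio was 0.91 ± 0.10 in pECDC and 1.25 ± 0.033 in iECDC, without overlap, and 1.53 ± 0.66 in SB431542.

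**Figure D3:**
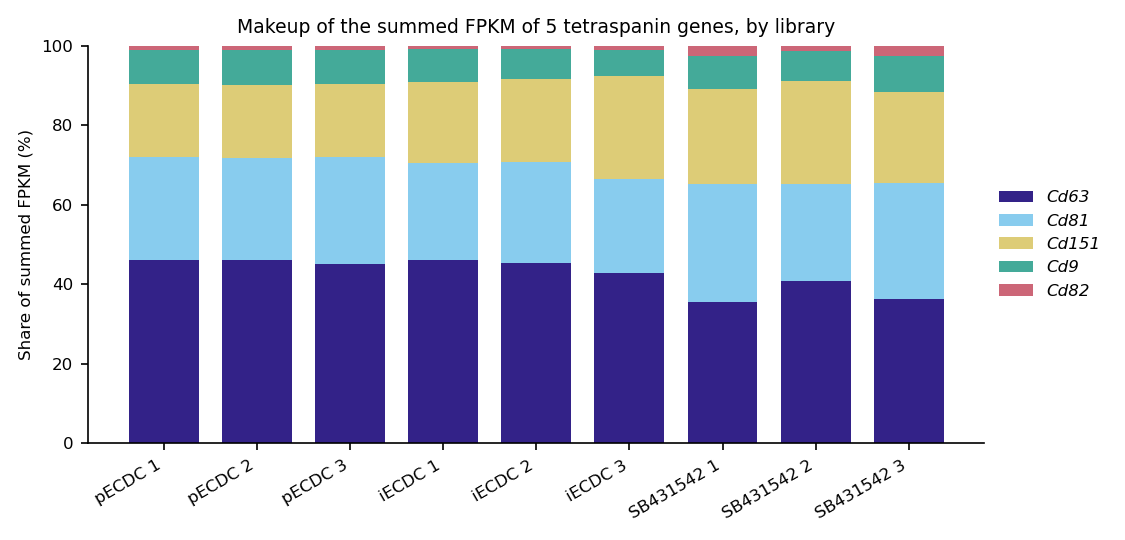
Share (%) of each of 5 tetraspanin genes in their summed FPKM, with 1 stacked bar per library. The Cd63 share is between 42.7% and 46.1% in the 6 untreated libraries and between 35.6% and 40.8% in the treated ones, and the Cd82 share is 2.59%, 1.38% and 2.66% in treated replicates 1, 2 and 3.

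Around the 10 genes, 105 others of the same pathway were read in 9 lists by role. Of these, 90, 88 and 91 had counts high enough to be tested in the 3 comparisons. The calls numbered 16 for iECDC against pECDC (10 higher, 6 lower), 22 for SB431542 against iECDC (12 and 10) and 39 for SB431542 against pECDC (23 and 16). As shares these were 17.8%, 25.0% and 42.9%, to be read beside the shares over all genes given above.

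Among 26 other tetraspanins, those called for iECDC against pECDC numbered 4 higher and 2 lower of 18 tested, beside 16.4% of all genes. Apart from Tspan9 and Tspan11, the genes called were below 1 FPKM on average in both groups. Tspan9 was higher (25.8 ± 3.69 against 17.9 ± 0.17 FPKM, log2 fold change 0.51, adjusted p = 0.00669, edgeR) and Tspan11 lower (4.52 ± 0.77 against 8.81 ± 0.70, log2 fold change -0.97, adjusted p = 0.00106). In SB431542 against iECDC, 4 were higher and 2 lower of 17, beside 30.0% of all genes called. Tspan5, whose protein steers the protease ADAM10, was higher (7.63 ± 0.48 against 3.07 ± 0.82 FPKM, log2 fold change 1.33, adjusted p = 0.00205, edgeR). Tspan2 was lower (0.83 ± 0.24 against 2.61 ± 0.68, log2 fold change -1.63, adjusted p = 0.00437), as was Tspan12 (-0.72). In SB431542 against pECDC, 7 were higher and 2 lower of 19, beside 34.8% of all genes called. Tspan5 was at 1.53, Tspan9 at 0.68 and Tspan2 at -1.41 on the log2 scale. The higher calls of these comparisons also included genes below 1 FPKM.

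The partners that tetraspanins hold at the membrane also included calls. Itgb1, the integrin β1 chain, was higher in iECDC than in pECDC (424 ± 23.3 against 357 ± 0.88 FPKM, log2 fold change 0.23, adjusted p = 0.0433, edgeR) and Adam10 lower (-0.22, adjusted p = 0.0299). In SB431542 against iECDC, Itgb1 was lower (249 ± 9.0 against 424 ± 23.3 FPKM, log2 fold change -0.75, adjusted p = 0.00385). Itga3, the integrin α3 chain that Cd151 protein binds directly, was higher (8.32 ± 1.29 against 3.50 ± 0.043 FPKM, log2 fold change 1.26, adjusted p = 0.00110, edgeR). Igsf8, an EWI protein that binds Cd9 and Cd81 proteins, was higher by 0.44 on the log2 scale (adjusted p = 0.0174). Against pECDC the log2 fold changes were 1.07 for Itga3, 0.52 for Igsf8 and -0.67 for Itga6, the α6 chain. Itgb1 was lower there too (249 ± 9.0 against 357 ± 0.88 FPKM, log2 fold change -0.51, adjusted p = 0.00274, edgeR).

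Among the ESCRT genes tested between iECDC and pECDC, where 16.4% of all genes were called, 1 passed the threshold. Vps37b, an ESCRT-I subunit like Tsg101, was higher (log2 fold change 0.38, adjusted p = 0.0193, edgeR) and was the 1 call among 10 tested ESCRT-0 and ESCRT-I genes. ESCRT-II (2 tested) and ESCRT-III with VPS4 (14 tested) gave 0 calls by edgeR, DESeq2 and limma, with 0 and 1 genes at an unadjusted p under 0.05. In SB431542 against iECDC, where 30.0% of all genes were called, Vps36 of ESCRT-II was lower (-0.54, adjusted p = 0.0173, edgeR) and Vta1, the cofactor of VPS4, was lower (-0.57, adjusted p = 0.0183). ESCRT-0 and ESCRT-I gave 0 calls among 10 genes by edgeR, DESeq2 and limma, with 1 at an unadjusted p under 0.05. Against pECDC, 3 of 10 ESCRT-0 and ESCRT-I genes were called, near the 34.8% of all genes, with Vps37c (0.47) and Mvb12b (0.36) higher and Stam2 (-0.34) lower. In the same comparison, Chmp1a (0.41) was higher and Chmp5 (-0.45) and Vta1 (-0.61) were among the 3 lower of 14 ESCRT-III and VPS4 genes, 4 of which were called. The symbol Hgs, an ESCRT-0 subunit, had 2 overlapping entries, both listed at 0 in every library, and was not tested.

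In the list around Sdcbp, 3 of 10 genes were called in SB431542 against iECDC, at the share of all genes tested (30.0%). All 3 were higher (16.0% of all genes were), among them Hpse, the heparanase that trims syndecan chains (6.91 ± 1.25 against 3.86 ± 0.098 FPKM, log2 fold change 0.85, adjusted p = 0.00744, edgeR). Arf6, the GTPase that drives budding along this route, was at 0.29 (adjusted p = 0.0494). The third was Smpd3, the neutral sphingomyelinase of the ceramide route, which was below 1 FPKM in every group. In SB431542 against pECDC, 6 of 10 were called, all higher (17.9% of all genes were), with log2 fold changes of 0.65 for Sdc2, 0.50 for Sdc4 and 0.83 for Hpse. Lower calls in this list numbered 0 by edgeR, DESeq2 and limma in both comparisons, and 0 at an unadjusted p under 0.05. Between iECDC and pECDC, Sdc2 was higher (0.34, adjusted p = 0.00948, edgeR) and Smpd3 lower. Sdcbp itself was called in none of the 3 comparisons with all libraries.

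The list drawn up for RAB27 effectors and regulators held 11 genes, among them Rab3gap1, which is named for RAB3 instead. Of these, 6 could be tested in iECDC against pECDC, 5 in SB431542 against iECDC and 6 in SB431542 against pECDC. In the first comparison 1 was called, as lower. In the second 1 was higher and 1 lower, and in the third 2 were higher and 2 lower, against 16.4%, 30.0% and 34.8% of all genes called. Sytl4 was lower in iECDC than in pECDC (log2 fold change -2.09, adjusted p = 0.000627, edgeR) and in SB431542 than in pECDC (-3.85, adjusted p = 0.000834). Sytl5 was lower in SB431542 than in iECDC (-2.83, adjusted p = 0.00383, edgeR) and than in pECDC (-2.05, adjusted p = 0.0181). Both encode synaptotagmin-like proteins that bind RAB27, and both stayed below 1 FPKM in every library. Sytl2, which links Rab27a protein to the plasma membrane, was higher in SB431542 than in iECDC (1.25 ± 0.37 against 0.55 ± 0.067 FPKM, log2 fold change 1.19, adjusted p = 0.0101, edgeR) and than in pECDC (1.05, adjusted p = 0.0138). Among 18 other RAB and fusion factors, Rab31 (0.28) and Vamp3 (0.21) were higher in iECDC than in pECDC. In SB431542 against iECDC, 1 was higher and 4 were lower, among them Ykt6, a SNARE of exosome secretion (46.9 ± 3.43 against 65.1 ± 5.37 FPKM, log2 fold change -0.46, adjusted p = 0.0175, edgeR), and Rala (-0.42). Tbc1d10b, which switches RAB27 and RAB35 proteins off, was the higher one (0.35, adjusted p = 0.0450). Against pECDC, 2 were higher and 5 lower, with Snap23 at -0.66, Ykt6 at -0.45 and Tbc1d10b at 0.47.

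Of 6 other vesicle markers, Mfge8, the lactadherin that coats vesicles, was higher in iECDC than in pECDC (69.2 ± 5.05 against 55.2 ± 0.66 FPKM, log2 fold change 0.31, adjusted p = 0.0142, edgeR) and Flot1 was lower (-0.43, adjusted p = 0.00291). Flot1, a lipid-raft protein, was higher in SB431542 than in iECDC (60.6 ± 19.6 against 31.3 ± 1.38 FPKM, log2 fold change 0.97, adjusted p = 0.0170). Mfge8 was higher in SB431542 than in pECDC (77.4 ± 4.73 FPKM, log2 fold change 0.50, adjusted p = 0.00365, edgeR). Flot1 was not called in SB431542 against pECDC (log2 fold change 0.55, adjusted p = 0.109, edgeR). It was at 72.5, 38.0 and 71.3 FPKM in SB431542 replicates 1, 2 and 3, and at 39.4 to 43.9 in pECDC. Replicate 2 lay below every pECDC library. Calls in this list numbered 2 of 6 for iECDC against pECDC, beside 16.4% of all genes. They numbered 1 of 6 for SB431542 against iECDC and 1 of 6 for SB431542 against pECDC, beside 30.0% and 34.8%.

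**Figure D4:**
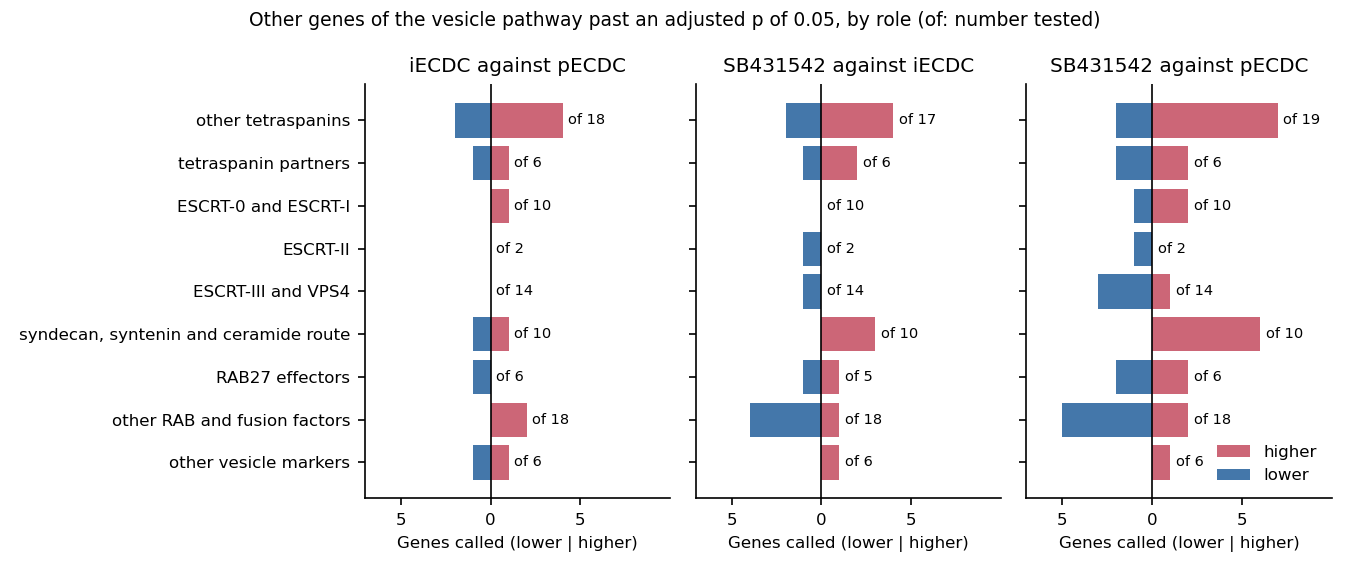
Number of genes called at an adjusted p under 0.05 (horizontal axes, lower to the left of 0 and higher to the right) in 9 lists of vesicle genes, with the number tested beside each bar, for the 3 comparisons. In SB431542 against pECDC the list of other tetraspanins has 7 higher and 2 lower of 19, and the syndecan, syntenin and ceramide list 6 higher of 10. Of all genes tested there, 34.8% were called.

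Cd82, Cd151 and Rab27a had the widest range of group means on the log2(FPKM + 0.1) scale, at 1.21, 0.50 and 0.48. Over the 9 libraries, and among 11533 genes with a mean of at least 1 FPKM, the genes nearest to Cd82 were Cpeb3, Cxcl12 and Hacd4, with root mean square differences of 0.096, 0.11 and 0.11 log2 units after each gene was centred on its own mean. Cxcl12, the chemokine that retains progenitor cells, was at a mean of 137, 117 and 265 FPKM in pECDC, iECDC and SB431542. Nearest to Cd151 were Fads3 (0.049), Sdf4 (0.049) and Mfge8 (0.051). Nearest to Rab27a were Hoxa5 (0.12), Zfyve16 (0.12) and Gm5641 (0.13). These are descriptions of likeness over libraries that share their groups and depth.

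Reads of some members may have been shared with other entries. The pseudogene Cd63-ps took 1577 to 2487 counts per library, 11.0% to 12.2% of the counts of Cd63, and over the 717 coding bases of Cd63 the sequences were 98.9% identical, so the split between them is uncertain. With the reads of Cd63-ps and Tsg101-ps added to Cd63 and Tsg101, an alternative added after seeing the data, Tsg101 passed the threshold in SB431542 against iECDC (log2 fold change -0.33, adjusted p = 0.0498, edgeR; range over 17 alternatives 1.03e-05 to 0.213). Tsg101-ps had 4 to 14 counts and Cd9-ps 0. On the opposite strand, exons of Gm10575 overlapped those of Cd151 by 193 bases with 58 to 129 counts per library, beside 5162 to 7621 for Cd151. Nsmaf overlapped Sdcbp by 78 bases, R74862 overlapped Cd81 by 104, and Gm26728 overlapped Cd9 by 218. Whether the counting used strand is not given in the sources used here, and without it reads from such stretches cannot be told apart.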

How the data were processed

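Per the labels, total RNA was made into libraries with the Illumina TruSeq kit and run on a HiSeq2000, whereas the methods of the study name other kits and instruments. The authors deposited whole-number read counts and FPKM per gene, and the submitters' processing notes name TopHat2 2.0.9, Bowtie2 2.0.6 and build mm9. The table's coordinates are those of GRCm38 (53499 of 54532 genes had the start and end of the GENCODE annotation), and the counting program is not given in the sources used here. In the deposited FPKM values, each library was scaled by a constant equal to 92.8% to 105% of its total count. The authors also deposited a size-factor-scaled mean signal per group and, from their DESeq comparisons, log2 fold changes and p-values, which were not used. A second table of gene annotation was not needed.

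The test was the quasi-likelihood test of edgeR 4.0.16 under R 4.3.3 (TMM, filterByExpr with a minimum count of 10 and a minimum total of 15), fitted on the 6 libraries of each comparison, with Benjamini-Hochberg adjustment over all genes tested and a threshold of 0.05. A gene is called higher or lower when it passes that threshold. The scripts were tested on simulated data. DESeq2 1.42.0, limma 3.58.1 on log2(FPKM + 1) and log2(FPKM + 0.1), other scalings and filters, all 9 libraries in 1 fit and each replicate left out were alternatives. Depth of 16568306 to 23951392 counts limits precision most for Rab27a and Rab27b. The members, the 9 pathway lists and the marker lists were chosen with earlier results of these data known. Besides the members, up to 3 genes per list and comparison were named, by largest change among those called with at least 1 FPKM in the higher group, together with the genes nearest to the 3 members of widest range, marker genes and overlapping genes. Smpd3, Sytl4, Sytl5 and Rab3gap1, and Itgb1 and Flot1 in SB431542 against pECDC, were named after their values were seen. One gene of the treatment check is not reported here.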

Additional observations from a re-analysis of the deposited data

How the results depend on the processing

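Of 490 recomputed fold changes of the 10 genes, 438 kept their direction and side of the threshold, 26 gained a call, 10 lost one and 16 turned sign. All turns were of uncalled values. For iECDC against pECDC, Cd81 turned under upper-quartile scaling (-0.0021), and without each replicate in turn Cd81 ranged from -0.0090 to 0.066, Cd9 from -0.19 to 0.017 and Rab27b from -0.14 to 0.11 (log2). For SB431542 against iECDC, Rab27a turned under upper-quartile scaling (0.0039) and ranged from -0.21 to 0.10, and Sdcbp from -0.11 to 0.023. For SB431542 against pECDC, Cd9 ranged from -0.051 to 0.16, Sdcbp from -0.045 to 0.092 and Rab27b from -0.0063 to 0.55.

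Called members ranged from 0 to 4, 0 to 5 and 1 to 8 in the 3 comparisons when each replicate was left out. Called pathway genes then ranged from 7 to 32, 11 to 38 and 21 to 64, and called genes overall from 1036 to 4467, 1707 to 7001 and 2453 to 9188, against 2258, 4061 and 4881 with all libraries. With all 9 libraries in 1 fit, iECDC against pECDC had 671 calls overall and 6 in the pathway, and SB431542 against iECDC called 4 members. With a minimum log2 change of 0.5, iECDC against pECDC kept 1143 genes, 8 in the pathway and 0 members, and SB431542 against pECDC 3098 genes and 19 in the pathway. In SB431542 against iECDC, both limma fits called 2 members, as did adding the pseudogene reads. Without iECDC replicate 3 and SB431542 replicate 2, that comparison called 8951 genes, 58 in the pathway and 7 members. No filter on low counts gave 25 pathway calls for iECDC against pECDC. The cause of these differences was not tested. The shares of the 5 tetraspanins within a library cannot change with library scaling, so that alternative says nothing of their stability.

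Correlations of the deviations from group means lay between -0.24 and 0.038 for same-numbered replicates and between -0.11 and 0.20 for different numbers. With 3 libraries per group, and some standing apart, these values cannot show whether the replicate numbers pair the samples. With the replicate number as a block, 1791, 3038 and 3886 genes were called, with 1, 1 and 2 members as without it, and 14 pathway genes in place of 22 for SB431542 against iECDC.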
